A study of Mus musculus with 15 samples.

Results

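The expression of 10 genes was followed in bone marrow-derived macrophages (BMDMs): Pparg, the gene of the nuclear receptor PPARγ, and 9 genes that macrophages use to take up, carry, store and respond to lipid (Cd36, Trem2, Lpl, Apoe, Fabp4, Fabp5, Plin2, Gpnmb and Lgals3). They were chosen by symbol in the table of raw counts and are 10 of the 55385 genes in that table. All 10 were among the 13005 genes that passed the filter on low counts. The BMDMs came from female BALB/c mice of 6 wk and were of 2 genotypes. STAT5 fl/fl mice (n = 2 per treatment) carry floxed Stat5a and Stat5b alleles without Cre and served as controls. STAT5 cKO mice (n = 3 per treatment) carry the same floxed alleles and Csf1r-iCre, which removes them in cells that express Csf1r, the receptor of the macrophage growth factor CSF1; this Cre is also active in other myeloid cells and in some lymphocytes. The BMDMs of each genotype were kept for 2 h in serum-free DMEM, in DMEM with 20 ng/mL rmGM-CSF (recombinant mouse GM-CSF, a cytokine that activates STAT5) or in 4T1 CM, serum-free medium in which 4T1 cells, from a mouse mammary tumor, had grown. The comparisons ask how lipid-handling genes respond to the cytokine and to tumor cell factors, and whether the responses differ without STAT5. The labels number the samples 112 to 116, each number with 1 genotype and once in each treatment; a number is taken here to be a mouse, which the labels do not state.

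PPARγ binds DNA as a partner of the retinoid X receptor at paired copies of a short hexamer, and in macrophages it switches on genes of fatty acid uptake and storage. It is best known there from lung alveolar macrophages, whose maturation needs GM-CSF. CD36 brings in oxidized lipoproteins and long-chain fatty acids, lipoprotein lipase (Lpl) frees fatty acids from triglyceride-rich particles, the FABP proteins carry fatty acids in the cytosol, perilipin 2 (Plin2) coats lipid droplets, and apolipoprotein E (Apoe) carries cholesterol out. TREM2 is a surface receptor for lipids and lipoproteins, and Trem2, Gpnmb, Lgals3 and Apoe mark the lipid-associated macrophages of adipose tissue, plaques and tumors.

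The promoter sequences of the 3 genes whose group means spread most or that fell with both treatments are shown, because PPARγ is a DNA-binding regulator of several of the others. RefSeq promoters (GRCm38.p6, 250 bases before to 50 after the start) were matched by symbol for 7 of the 10 genes, 11 promoters in all. They were searched on both strands for the PPAR hexamer AGGTCA, for a pair of hexamers spaced by a single base (DR1), for the STAT element TTCNNNGAA, for the E-box CACGTG and for the AP-1 element TGACTCA. The Cd36 stretch is chr5:17835897-17836146 and the Plin2 stretch chr4:86670061-86670309, both on the minus strand and both outside the exons of the count table. Of Pparg, 30 bases around the hexamer are given for its first promoter (chr6:115361104-115361133) and its second (chr6:115362319-115362348), both on the plus strand and inside first exons of the count table. Capitals mark the hexamer, on either strand, and at the end of the Plin2 stretch the first bases of an E-box.
Cd36: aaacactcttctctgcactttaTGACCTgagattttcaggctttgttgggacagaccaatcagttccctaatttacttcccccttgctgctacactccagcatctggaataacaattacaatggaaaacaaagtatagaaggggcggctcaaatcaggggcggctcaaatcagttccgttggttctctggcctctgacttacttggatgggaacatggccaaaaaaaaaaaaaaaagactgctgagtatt
Plin2: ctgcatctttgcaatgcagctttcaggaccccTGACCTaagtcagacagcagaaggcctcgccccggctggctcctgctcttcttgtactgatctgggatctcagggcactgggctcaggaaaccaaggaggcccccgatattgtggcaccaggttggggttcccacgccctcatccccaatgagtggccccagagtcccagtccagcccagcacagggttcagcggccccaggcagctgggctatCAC
Pparg, first promoter: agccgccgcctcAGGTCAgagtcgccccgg
Pparg, second promoter: ttttatataagggacgcgaggAGGTCAaga

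A hexamer was present in promoters of Pparg, Trem2, Cd36 and Plin2, counting the start as base 1 at 28 and 9 bases before it in Pparg, 68 in Trem2, 228 in Cd36 and 218 in Plin2. The third Pparg promoter (chr6:115421816-115422115), not shown, held none of the motifs, and the promoters of Apoe, Gpnmb and Lgals3 held no hexamer. The same letters occurred in 16.3% of all 32851 promoters searched. Plin2 also held an E-box (7.15% of promoters) that begins 4 bases before the start, and Gpnmb an AP-1 element (5.2%) that begins at base 9. The STAT element (8.3% of promoters) and the DR1 pair (0.0396%) were in none of the 11. These matches describe letters in a short window, not binding.

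Library totals lay between 16016736 and 22883108 counts, so that 3 counts, taken as the floor of detection, corresponded to 0.131 to 0.187 CPM (counts scaled to a common library size), a limit that covers counting error only. In the STAT5 cKO libraries Stat5a had at most 3 counts and Stat5b at most 4, against a mean of 29.7 to 44 and 61.2 to 72.7 CPM in the STAT5 fl/fl groups. Cish, a direct STAT5 target, reached 148 CPM ± 2.3 (SD, n = 2) with rmGM-CSF in STAT5 fl/fl BMDMs and 2.29 CPM ± 0.327 (SD, n = 3) in STAT5 cKO BMDMs. Macrophage markers were abundant in every library (8 of 8 listed genes above the floor throughout, Csf1r between 3825 and 4204 CPM). Of the adipocyte markers, which share Pparg and Fabp4 with macrophages, 0 of 5 passed 3 counts in any library, and Plin1 had no count. Mast cell and erythroid markers likewise passed the floor in 0 of 4 and 0 of 4 genes. Of 5 markers of epithelial or mammary tumor cells, Krt8, Krt18 and Krt19 had at most 1, 2 and 1 counts and Epcam at most 4, while Cdh1 reached 84 counts (4.34 CPM). Their summed level was 0 to 0.137 CPM in STAT5 fl/fl and 0 to 0.0435 CPM in STAT5 cKO libraries in DMEM, 1.18 to 1.43 and 0 to 0.0491 CPM with rmGM-CSF, and 3.16 to 4.39 and 1.23 to 2.17 CPM with 4T1 CM, so that it was highest with 4T1 CM and differed between the genotypes without overlap in both treatments. Its part in the results was not tested. Since these are bulk samples, fewer cells of a type and less RNA per cell cannot be told apart in any value below.

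Levels are compared between genes per length, as CPM per kilobase of exon (RPKM). Apoe was the most abundant of the 10, at 2090 to 3603 RPKM over the 15 libraries, followed by Lgals3 at 1495 to 2325 and Gpnmb at 1061 to 1328. These ranges do not overlap except between Apoe and Lgals3. Plin2 (130 to 299 RPKM), Trem2 (150 to 211), Lpl (79.8 to 189), Fabp5 (63 to 111) and Cd36 (38.8 to 136) formed a middle range in which neighbours overlapped. Fabp4 (8.98 to 22.4 RPKM) and Pparg (7.07 to 23.6) were the lowest, with overlapping ranges. The length used for Fabp4 is its whole span of 4489 bases, introns included, which lowers its RPKM. Across the 6 groups the mean log2 level of Pparg spread most, by 1.51, and those of Cd36, Fabp4 and Plin2 by 1.44, 1.19 and 1.07. The mean of Gpnmb spread by 0.20.

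**Figure D1:**
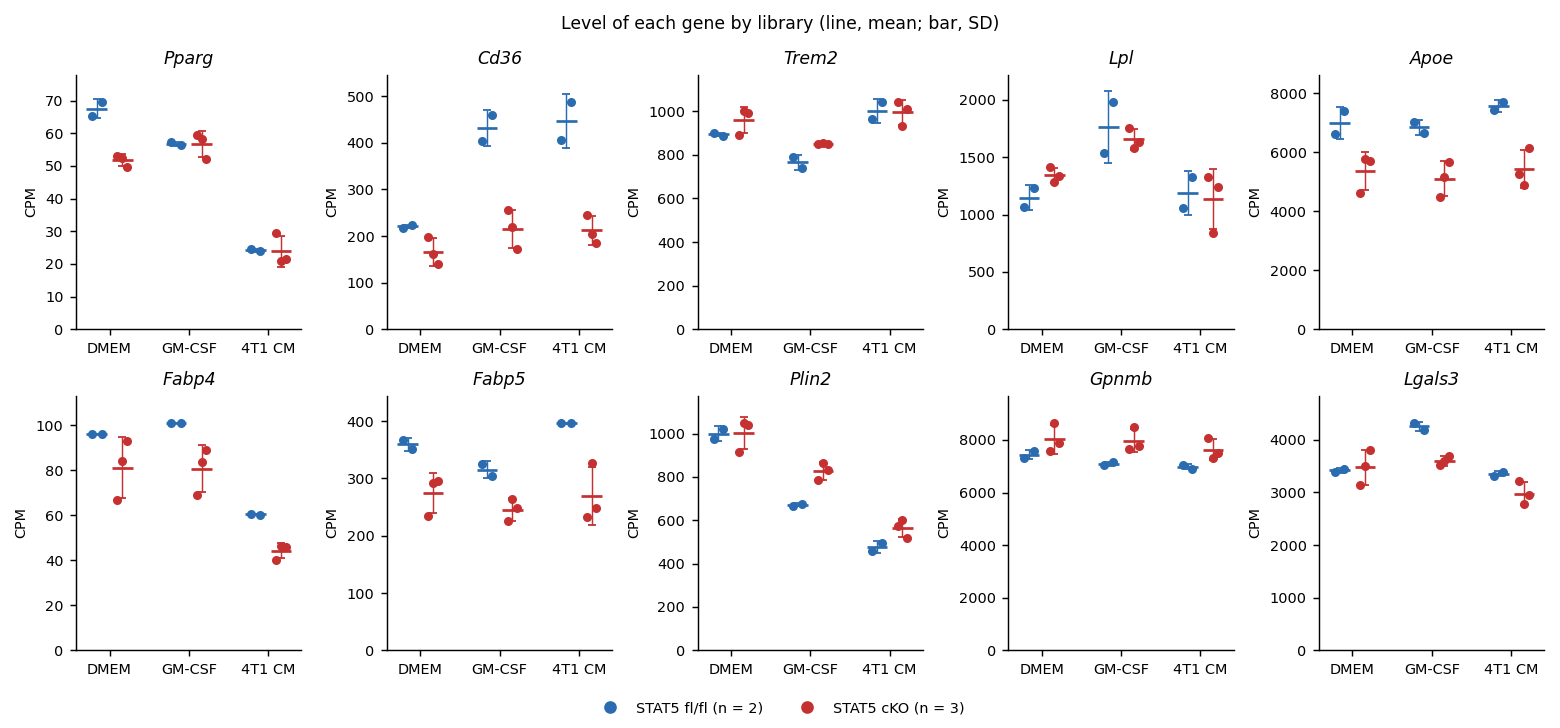
CPM of each of the 10 genes in every library (points), with the mean (line) and SD (bar) of each group, by treatment and genotype; each panel starts at 0. Pparg, Fabp4 and Plin2 are low with 4T1 CM in both genotypes, Cd36 is high in STAT5 fl/fl BMDMs with rmGM-CSF and 4T1 CM, and Gpnmb stays between 6913 and 8649 CPM in every library.

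Pparg (ENSMUSG00000000440, chromosome 6 of GRCm38 from 115360951 to 115490399) fell with 4T1 CM in both genotypes. In STAT5 fl/fl BMDMs it had 65.4 and 69.6 CPM in DMEM, 57.2 and 56.4 CPM with rmGM-CSF, and 24.5 and 23.8 CPM with 4T1 CM. In STAT5 cKO BMDMs it had 53.1, 52.3 and 49.6 CPM in DMEM, 59.5, 58.2 and 52.1 CPM with rmGM-CSF, and 29.4, 20.9 and 21.5 CPM with 4T1 CM. Every 4T1 CM library lay below every other library. The log2 fold change of 4T1 CM against DMEM was -1.48 ± 0.12 (SE) in STAT5 fl/fl BMDMs (edgeR quasi-likelihood test, Benjamini-Hochberg adjusted p = 1.63e-08) and -1.11 ± 0.10 in STAT5 cKO BMDMs (adjusted p = 4.48e-08). Against rmGM-CSF the changes were -1.24 ± 0.12 (adjusted p = 3.49e-07) and -1.25 ± 0.10 (adjusted p = 1.51e-08), so that Pparg was lower with 4T1 CM than with the cytokine given alone. With rmGM-CSF itself Pparg did not pass the test in either genotype (log2 fold changes of -0.25 ± 0.11 and 0.13 ± 0.09 against DMEM). In STAT5 fl/fl BMDMs the rmGM-CSF libraries still lay below the DMEM libraries without overlap. There the adjusted p was 0.0895, and 0.0121 to 0.118 over the alternatives that keep all mice, so a smaller decrease remains possible. In DMEM the STAT5 cKO libraries lay below the STAT5 fl/fl libraries, with a log2 difference of -0.39 ± 0.10 that did not pass (adjusted p = 0.0291). That value passed with DESeq2 (adjusted p = 0.00983), in a model of only these groups (0.00682) and without mouse 114 (0.0064), within a range of 0.00682 to 0.0352 over the alternatives that keep all mice. With rmGM-CSF and 4T1 CM the genotypes overlapped and their log2 differences were -0.00 ± 0.10 and -0.01 ± 0.12. The difference between the responses of the genotypes, STAT5 cKO minus STAT5 fl/fl, was 0.38 ± 0.15 for rmGM-CSF and 0.37 ± 0.15 for 4T1 CM and did not pass (adjusted p = 0.189 and 0.266).

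Cd36 (ENSMUSG00000002944, chromosome 5 from 17781690 to 17888801) was the gene of the 10 that separated the genotypes most. STAT5 fl/fl BMDMs had 218 and 223 CPM in DMEM, 405 and 460 CPM with rmGM-CSF, and 406 and 488 CPM with 4T1 CM. STAT5 cKO BMDMs had 197, 161 and 139 CPM in DMEM, 255, 219 and 172 CPM with rmGM-CSF, and 246, 205 and 185 CPM with 4T1 CM. The lowest treated STAT5 fl/fl library stood above the highest STAT5 cKO library of any treatment. Cd36 rose in STAT5 fl/fl BMDMs by a log2 fold change of 0.97 ± 0.17 with rmGM-CSF (adjusted p = 1.87e-04) and of 1.02 ± 0.17 with 4T1 CM (adjusted p = 8.08e-05), a change of 1.96-fold and 2.03-fold, and it did not differ between these treatments beyond its error (0.05 ± 0.17). In STAT5 cKO BMDMs the changes of 0.38 ± 0.14 and 0.35 ± 0.14 did not pass (adjusted p = 0.0421 for both). Loss of the floxed alleles went with less Cd36 under rmGM-CSF, by a log2 difference of -1.01 ± 0.15 (adjusted p = 1.29e-04), and under 4T1 CM, by -1.08 ± 0.15 (adjusted p = 1.07e-04). In DMEM the difference was -0.41 ± 0.15 (adjusted p = 0.118). Without mouse 113, which leaves a single STAT5 fl/fl library per treatment that is assumed to vary like the other groups, the adjusted p was 0.0109 with rmGM-CSF, 0.0119 with 4T1 CM, and 0.0217 and 0.0155 for the rises in STAT5 fl/fl BMDMs.

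The change of Cd36 was also taken within each mouse. From DMEM to rmGM-CSF it changed 1.85-fold in mouse 112 and 2.06-fold in mouse 113 (STAT5 fl/fl), and 1.3-fold, 1.36-fold and 1.23-fold in mice 114, 115 and 116 (STAT5 cKO). From DMEM to 4T1 CM the values were 1.86-fold and 2.19-fold against 1.25-fold, 1.27-fold and 1.33-fold. Every mouse changed upward, and the genotypes did not overlap. Tested as a difference between the responses, STAT5 cKO minus STAT5 fl/fl, the log2 values of -0.59 ± 0.22 for rmGM-CSF and -0.66 ± 0.22 for 4T1 CM did not pass (adjusted p = 0.167 and 0.133). With the mouse as a replicate block in a paired model they passed, at -0.59 (adjusted p = 2.80e-04) and -0.65 (adjusted p = 2.62e-04), and so did the rises in STAT5 cKO BMDMs (adjusted p = 5.25e-05 with rmGM-CSF and 4.00e-05 with 4T1 CM). Over the alternatives that keep all mice, the adjusted p of the 2 differences ran from 2.80e-04 to 0.292 and from 2.62e-04 to 0.177.

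**Figure D2:**
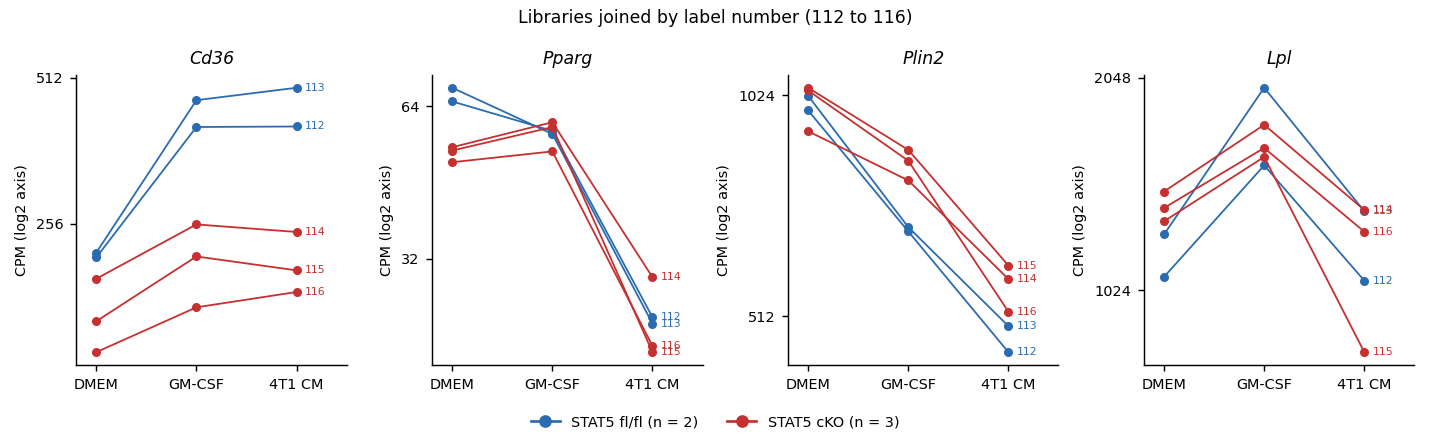
CPM of Cd36, Pparg, Plin2 and Lpl (log2 axis) in the 3 treatments, with the libraries of a mouse (numbers 112 to 116 of the labels) joined by a line. For Cd36 the order of the mice is kept across treatments and the STAT5 fl/fl lines rise more steeply, while for Pparg all 5 lines drop with 4T1 CM to between 20.9 and 29.4 CPM.

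Trem2 (ENSMUSG00000023992, chromosome 17 from 48346401 to 48354147), the lipid receptor, moved little. It had 899 and 888 CPM in DMEM, 789 and 741 CPM with rmGM-CSF, and 963 and 1041 CPM with 4T1 CM in STAT5 fl/fl BMDMs. The STAT5 cKO values were 893, 1000 and 990 CPM, 848, 854 and 849 CPM, and 1043, 932 and 1009 CPM. The rmGM-CSF libraries were the lowest of each genotype. The log2 change from DMEM to rmGM-CSF in STAT5 fl/fl BMDMs was -0.22 ± 0.07 (adjusted p = 0.0225). Over the alternatives that keep all mice this p ran from 0.0077 to 0.027. Trem2 was higher with 4T1 CM than with rmGM-CSF, by a log2 fold change of 0.39 ± 0.07 in STAT5 fl/fl BMDMs (adjusted p = 4.12e-04) and of 0.23 ± 0.06 in STAT5 cKO BMDMs (adjusted p = 0.00539), and it passed in no comparison with DMEM and in none between the genotypes. The former call was lost without mouse 113 (adjusted p = 0.0789) and the latter without mouse 113 (0.0106), 114 (0.0475) or 116 (0.051).

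Lpl (ENSMUSG00000015568, chromosome 8 from 68880491 to 68907448), the secreted lipase, was highest with rmGM-CSF in every mouse. STAT5 fl/fl BMDMs had 1069 and 1228 CPM in DMEM, 1539 and 1983 CPM with rmGM-CSF, and 1056 and 1325 CPM with 4T1 CM. STAT5 cKO BMDMs had 1413, 1282 and 1339 CPM in DMEM, 1757, 1582 and 1629 CPM with rmGM-CSF, and 1330, 836 and 1239 CPM with 4T1 CM, where mouse 115 stood apart. The rise with rmGM-CSF was 0.62 ± 0.17 on the log2 scale in STAT5 fl/fl BMDMs (adjusted p = 0.00703), and 0.30 ± 0.14 in STAT5 cKO BMDMs, which did not pass (adjusted p = 0.101) except with the replicate block (0.00968) and in a model of only those groups (0.00219). With 4T1 CM Lpl was lower than with rmGM-CSF in STAT5 cKO BMDMs (-0.55 ± 0.14, adjusted p = 0.00344). In STAT5 fl/fl BMDMs that change was -0.57 ± 0.17 and did not pass (adjusted p = 0.0116), but did with the block (2.62e-04), within a range of 2.62e-04 to 0.0183 over the alternatives. The rise in STAT5 fl/fl BMDMs was lost without mouse 112 (0.0368), 113 (0.11) or 116 (0.0128), and the difference in STAT5 cKO BMDMs without mouse 115 (0.0187) or 116 (0.0134). Between the genotypes its log2 differences lay between -0.09 and 0.23 and none passed.

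Apoe (ENSMUSG00000002985, chromosome 7 from 19696109 to 19699188) passed in no comparison of treatments. Its STAT5 cKO libraries lay below the STAT5 fl/fl libraries of the same treatment without overlap. The same mice gave all treatments, so the order in each is not independent of that in the others. STAT5 fl/fl BMDMs had 6601 and 7383 CPM in DMEM, 7016 and 6664 CPM with rmGM-CSF, and 7416 and 7704 CPM with 4T1 CM. STAT5 cKO BMDMs had 4628, 5751 and 5696 CPM, 4468, 5159 and 5660 CPM, and 5265, 4886 and 6125 CPM, respectively. The log2 difference between the genotypes passed with 4T1 CM (-0.48 ± 0.12, adjusted p = 0.00976). It was of a like size in DMEM (-0.38 ± 0.12, adjusted p = 0.0564) and with rmGM-CSF (-0.42 ± 0.12, adjusted p = 0.0177), which did not pass. Over the alternatives that keep all mice, the adjusted p ran from 0.00453 to 0.0657 in DMEM and from 4.52e-04 to 0.02 with rmGM-CSF. The 4T1 CM call lay at the threshold and was lost with TMM normalization (adjusted p = 0.0109), in a model of only these groups (0.04) and without mouse 112 (0.057), 113 (0.117), 114 (0.0132) or 115 (0.0477). The log2 changes with treatment lay between -0.07 and 0.11 against DMEM in both genotypes, and their adjusted p between 0.495 and 0.902.

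Fabp4 and Fabp5, neighbours on chromosome 3 that encode the adipocyte and epidermal type of fatty acid carrier, differed in their response. Fabp4 (ENSMUSG00000062515, from 10204088 to 10208576) had 95.9 and 96 CPM in DMEM, 101 and 101 CPM with rmGM-CSF, and 60.6 and 60.1 CPM with 4T1 CM in STAT5 fl/fl BMDMs. Without STAT5 the values were 66.6, 84 and 93 CPM, 68.9, 83.8 and 89 CPM, and 40.3, 46.5 and 46 CPM. It fell with 4T1 CM against DMEM by 0.67 ± 0.13 on the log2 scale in STAT5 fl/fl BMDMs (adjusted p = 3.08e-04) and by 0.88 ± 0.11 in STAT5 cKO BMDMs (adjusted p = 2.20e-06), and by 0.74 ± 0.13 (adjusted p = 1.74e-04) and 0.86 ± 0.11 (adjusted p = 3.86e-06) against rmGM-CSF. The STAT5 fl/fl calls were lost without mouse 112 (adjusted p = 0.018 against DMEM and 0.0128 against rmGM-CSF) or 113 (0.0229 and 0.02). All STAT5 cKO libraries lay below the STAT5 fl/fl libraries of the same treatment, with log2 differences of -0.24, -0.32 and -0.45 that did not pass (adjusted p = 0.228, 0.0655 and 0.0172). The last of these, with 4T1 CM, ran from 0.0031 to 0.0185 over the alternatives that keep all mice.

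Fabp5 (ENSMUSG00000027533, from 10012548 to 10016607) had 368 and 351 CPM in DMEM, 326 and 305 CPM with rmGM-CSF, and 397 and 396 CPM with 4T1 CM in STAT5 fl/fl BMDMs. STAT5 cKO BMDMs had 234, 293 and 296 CPM, 225, 264 and 248 CPM, and 232, 327 and 249 CPM. It passed in no comparison of treatments, and with the replicate block it was higher with 4T1 CM than with rmGM-CSF in STAT5 fl/fl BMDMs (adjusted p = 0.00279, against 0.0529 without the block), as it was in a model of only those groups (0.0055). With 4T1 CM the STAT5 cKO level was lower by a log2 difference of -0.56 ± 0.12 (adjusted p = 0.004). In DMEM (-0.39 ± 0.12, adjusted p = 0.0575) and rmGM-CSF (-0.36 ± 0.12, adjusted p = 0.0488) the same direction did not pass. The genotypes did not overlap in any treatment, all of which come from the same mice. Over the alternatives that keep all mice, the adjusted p ran from 0.0169 to 0.0604 in DMEM and from 0.00143 to 0.0517 with rmGM-CSF. The 4T1 CM call was lost in a model of only these groups (0.0352) and without mouse 112 (0.0455), 113 (0.0629) or 116 (0.0249). Mouse genomes hold processed copies of Fabp5, and pairs that map equally well to several places were left out of the counts by the mapping quality limit, so its level is uncertain.

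Plin2 (ENSMUSG00000028494, chromosome 4 from 86648386 to 86670060), the lipid droplet coat protein, fell in steps from DMEM to rmGM-CSF to 4T1 CM in all 5 mice. STAT5 fl/fl BMDMs had 977 and 1023 CPM in DMEM, 668 and 677 CPM with rmGM-CSF, and 457 and 496 CPM with 4T1 CM. STAT5 cKO BMDMs had 915, 1049 and 1040 CPM, 784, 863 and 834 CPM, and 575, 600 and 519 CPM, and the treatments did not overlap within either genotype. With rmGM-CSF it fell by 0.57 ± 0.08 on the log2 scale in STAT5 fl/fl BMDMs (adjusted p = 3.06e-05) and by 0.28 ± 0.07 in STAT5 cKO BMDMs (adjusted p = 0.00422). With 4T1 CM it fell by 1.07 ± 0.08 (adjusted p = 1.13e-08) and by 0.83 ± 0.07 (adjusted p = 1.85e-08). The difference between the responses of the genotypes did not pass, at 0.30 ± 0.11 for rmGM-CSF (adjusted p = 0.157) and 0.24 ± 0.11 for 4T1 CM (adjusted p = 0.299). The STAT5 cKO libraries stood above the STAT5 fl/fl libraries with rmGM-CSF (0.30 ± 0.08, adjusted p = 0.0114) and 4T1 CM (0.25 ± 0.08, adjusted p = 0.0389) but overlapped them in DMEM. The first of these passed with TMM normalization (0.00987), DESeq2 (0.00121), no filter on low counts (0.00364), the likelihood ratio test (0.00449), limma voom (0.00853) and a model of only these groups (0.00137), within a range of 0.00121 to 0.0128. The fall with rmGM-CSF in STAT5 cKO BMDMs was lost without mouse 114 (0.0103), 115 (0.0237) or 116 (0.0317), and the log2 fold change of 4T1 CM against rmGM-CSF in STAT5 fl/fl BMDMs (-0.50 ± 0.08, adjusted p = 1.25e-04) without mouse 112 (0.0138).

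Gpnmb (ENSMUSG00000029816, chromosome 6 from 49036546 to 49070929), a lysosome-linked glycoprotein, passed in none of the 11 comparisons. Its 15 libraries lay between 6913 and 8649 CPM with a median of 7564, and its log2 differences between groups between -0.09 and 0.17. In every treatment the STAT5 cKO libraries lay above the STAT5 fl/fl libraries, by 0.11 ± 0.08, 0.17 ± 0.08 and 0.13 ± 0.08 in DMEM, rmGM-CSF and 4T1 CM (adjusted p = 0.47, 0.183 and 0.333). Lgals3 (ENSMUSG00000050335, chromosome 14 from 47367751 to 47386160), which encodes the sugar-binding protein galectin-3, had 3382 and 3451 CPM in DMEM, 4320 and 4194 CPM with rmGM-CSF, and 3318 and 3392 CPM with 4T1 CM in STAT5 fl/fl BMDMs. The STAT5 cKO libraries had 3135, 3509 and 3799 CPM, 3513, 3592 and 3700 CPM, and 3213, 2779 and 2945 CPM. They lay below the STAT5 fl/fl libraries with rmGM-CSF (-0.24 ± 0.08, adjusted p = 0.0536, alternatives 0.00791 to 0.0616) and 4T1 CM (-0.17 ± 0.08, adjusted p = 0.18) but overlapped them in DMEM. From DMEM to 4T1 CM Lgals3 changed by -0.03 ± 0.09 in STAT5 fl/fl and -0.22 ± 0.07 in STAT5 cKO BMDMs. The latter did not pass (adjusted p = 0.0177, alternatives that keep all mice 0.0022 to 0.0718). Its rise with rmGM-CSF passed in STAT5 fl/fl BMDMs (0.32 ± 0.09, adjusted p = 0.00952) and was 0.05 ± 0.07 in STAT5 cKO BMDMs. The difference between these responses was not called (-0.27 ± 0.12, adjusted p = 0.277). It was lower with 4T1 CM than with rmGM-CSF in STAT5 fl/fl (-0.34 ± 0.09, adjusted p = 0.00539) and STAT5 cKO BMDMs (-0.27 ± 0.07, adjusted p = 0.00568). The rise was lost with TMM normalization (0.0119) and without any 1 mouse but 114 (adjusted p of 0.0113 to 0.168 without mice 112, 113, 115 and 116). The former of the other 2 was lost in a model of only these groups (0.0111) and without mouse 112 (0.113) or 113 (0.075), and the latter without mouse 112 (0.0144), 113 (0.0141), 115 (0.0664) or 116 (0.0448).

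**Figure D3:**
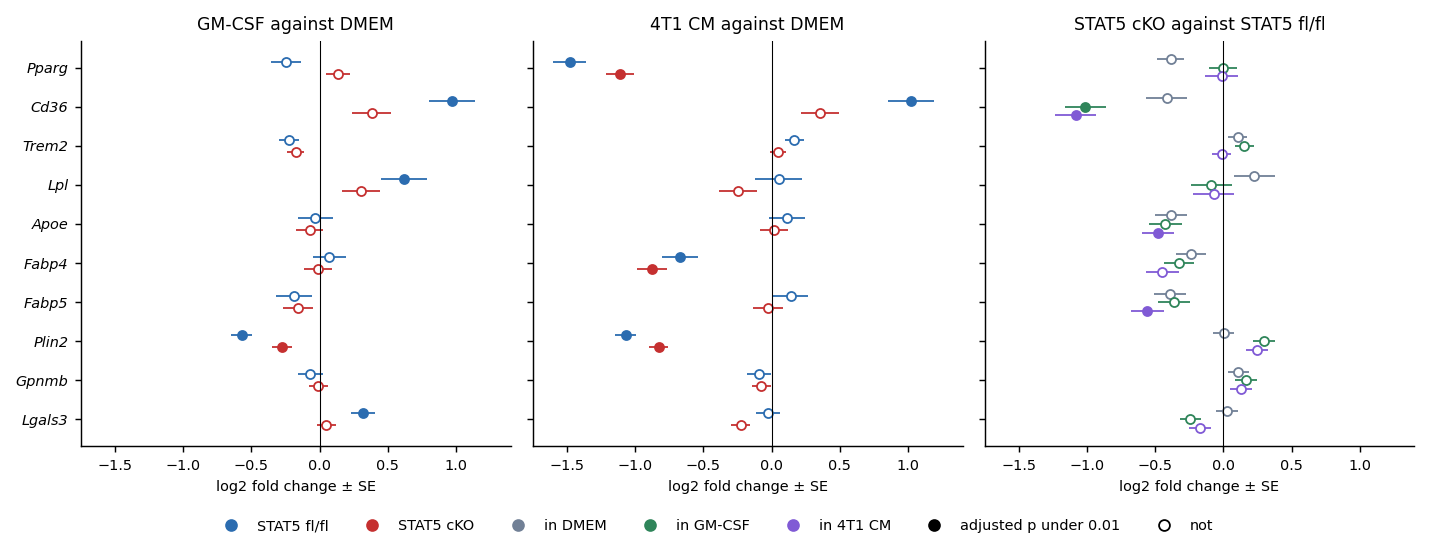
Log2 fold change ± SE of the 10 genes with rmGM-CSF (left) and 4T1 CM (middle) against DMEM in each genotype, and of STAT5 cKO against STAT5 fl/fl BMDMs in each treatment (right); filled points have an adjusted p under 0.01. Pparg at -1.48 and Plin2 at -1.07 are farthest to the left with 4T1 CM, and Cd36 at -1.01 and -1.08 is farthest to the left between the genotypes.

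The counts over the 10 genes are set beside the share of all tested genes called at the same threshold, an adjusted p under 0.01. With rmGM-CSF against DMEM, 3 rose (Cd36, Lpl and Lgals3) and 1 fell (Plin2) in STAT5 fl/fl BMDMs, where 28.5% of all tested genes were called, and 1 fell (Plin2) in STAT5 cKO BMDMs, where 23.5% were. The replicate block gave 3 in the latter, adding the rises of Cd36 and Lpl, beside 3336 of all 13005 genes. With 4T1 CM against DMEM, 1 rose (Cd36) and 3 fell (Pparg, Plin2 and Fabp4) in STAT5 fl/fl BMDMs (37.4% of all genes called), and 3 fell (Pparg, Plin2 and Fabp4) in STAT5 cKO BMDMs (37.6%). Between 4T1 CM and rmGM-CSF, 4 were lower and 1 was higher with 4T1 CM in STAT5 fl/fl BMDMs (30.5%), and 5 were lower and 1 was higher in STAT5 cKO BMDMs (34.1%). Both comparisons with DMEM use the same DMEM libraries and each treatment comparison shares libraries with the others, so they are not independent. The comparisons between the genotypes take the same mice in each treatment, so a difference seen in several treatments rests on no further mice. Between the genotypes 0 of 10 were called in DMEM (2.49% of all genes), 1 was lower without STAT5 under rmGM-CSF (9.8%), and 3 were lower with 4T1 CM (7.7%). In DMEM 5 had an unadjusted p under 0.05 in edgeR, as did 2824 of all 13005 tested genes. DESeq2 called 2 of the 10 there (557 of all genes) and limma voom 0 (335 of all genes). The median log2 difference of the 10 between the genotypes was -0.12, -0.17 and -0.12 in DMEM, rmGM-CSF and 4T1 CM, beside 0.00127, 4.75e-04 and 0.00981 over all genes. Of the differences between the responses of the genotypes, 0 of 10 were called for rmGM-CSF (3.11% of all genes) and for 4T1 CM (1.27%). At an unadjusted p under 0.05 there were 4 and 3 of the 10, beside 1901 and 1865 of all genes. DESeq2 and limma voom called 0 of the 10 in either. The replicate block called 1 in each, Cd36, beside 518 and 302 of all genes.

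Beside the genotype differences, the summed level of the 8 macrophage markers was 24034 to 27493 CPM in STAT5 fl/fl and 30117 to 42925 CPM in STAT5 cKO libraries. Most of it was Lyz2, without which the sums were 6944 to 8063 and 6752 to 8454 CPM. The summed level of 6 fibroblast markers, 5 of which passed the floor in some library, was 1 to 2.38 CPM in STAT5 fl/fl and 2.74 to 8.97 CPM in STAT5 cKO libraries. Its highest members were Col1a1 (up to 3.35 CPM) and Col1a2 (up to 4.35 CPM). The study itself reports higher Col1a1 in STAT5 cKO BMDMs by qRT-PCR, and more type I collagen by ELISA after 4T1 CM. Neutrophil, dendritic cell and lymphocyte markers summed to at most 2.5, 4.67 and 0.319 CPM, respectively. Kdr, at 53.5 to 126 CPM, made up most of the endothelial sum. That sum was 123 to 130 CPM in STAT5 fl/fl and 63.3 to 71.2 CPM in STAT5 cKO libraries in DMEM, 58.4 to 67.2 and 60.9 to 76.4 CPM with rmGM-CSF, and 102 to 117 and 77.4 to 102 CPM with 4T1 CM, so that the genotypes stood clearly apart in DMEM. The part of Lyz2, of the fibroblast markers and of Kdr in the genotype differences was not tested.

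Other genes of the pathway, from lists that leave out the 10, changed in both directions. Beside the list counts below, 37.4% and 37.6% of all tested genes were called with 4T1 CM against DMEM, in STAT5 fl/fl and STAT5 cKO BMDMs. With rmGM-CSF these shares were 28.5% and 23.5%. Between the genotypes they were 2.49%, 9.8% and 7.7% in DMEM, rmGM-CSF and 4T1 CM. Of the 157 list values that the naming rule selects against DMEM or between the genotypes, 108 passed with each mouse left out in turn and 49 did not. Among 9 tested nuclear receptors and co-regulators, 3 rose and 5 fell with 4T1 CM in STAT5 fl/fl BMDMs and 2 rose and 5 fell in STAT5 cKO BMDMs, with a median log2 change of -0.48 and -0.30. Ppard, the gene of the related receptor PPARδ, rose by 1.08 ± 0.08 and 1.56 ± 0.06, while Rxra and Rxrb, the genes of the partners of PPARγ, fell by 0.82 ± 0.12 and 0.48 ± 0.08 in STAT5 fl/fl and by 0.73 ± 0.10 and 0.53 ± 0.07 in STAT5 cKO BMDMs. With rmGM-CSF 1 rose and 2 fell in STAT5 fl/fl BMDMs, and 1 rose and 4 fell in STAT5 cKO BMDMs. The one that rose in both was Nr1h3, the gene of the sterol receptor LXRα (1.08 ± 0.12 and 1.14 ± 0.09). Rxra (-0.75 ± 0.12) and Rxrb (-0.50 ± 0.08) fell with rmGM-CSF in STAT5 fl/fl BMDMs, calls that were lost with a mouse left out (highest adjusted p = 0.024 and 0.0318). Between the genotypes Ppard was lower without STAT5 under rmGM-CSF (-0.67 ± 0.08).

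Among the known PPAR target genes calls were made in both directions, at shares near those of all genes (37.4% and 37.6% with 4T1 CM, 28.5% and 23.5% with rmGM-CSF, in STAT5 fl/fl and STAT5 cKO BMDMs). Of 15 tested, 2 rose and 4 fell with 4T1 CM in STAT5 fl/fl BMDMs and 3 rose and 4 fell in STAT5 cKO BMDMs. Hilpda, an inhibitor of lipid droplet breakdown, rose by 2.23 ± 0.12 and 2.61 ± 0.09, whereas Angptl4, a secreted inhibitor of lipoprotein lipase, fell by 1.78 ± 0.25 and 1.77 ± 0.20 on the log2 scale, and Cpt1a, the gate of mitochondrial fatty acid oxidation, fell by 0.47 ± 0.06 and 0.32 ± 0.05. With rmGM-CSF 0 rose and 4 fell in STAT5 fl/fl BMDMs, Angptl4 by 3.03 ± 0.31, and 1 rose and 2 fell in STAT5 cKO BMDMs, Angptl4 by 2.05 ± 0.21. Angptl4 had 7.62 CPM ± 0.813 (SD, n = 2) and 7.66 CPM ± 1.52 (SD, n = 3) in DMEM, so that its treated levels were low. Between the genotypes 0 of the 15 were called in DMEM, 2 were higher and 1 lower without STAT5 with rmGM-CSF, and 3 were higher with 4T1 CM. Of all genes 2.49%, 9.8% and 7.7% were called there. Hilpda was higher without STAT5 under 4T1 CM (0.76 ± 0.09) and under rmGM-CSF (0.65 ± 0.13, lost with a mouse left out, highest adjusted p = 0.0383).

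Most target genes of the LXR receptors rose with 4T1 CM. Of 9 tested, 5 rose and 1 fell in STAT5 fl/fl BMDMs (37.4% of all genes called) and 6 rose and 1 fell in STAT5 cKO BMDMs (37.6%). The median log2 change was 0.49 and 0.47, beside 0.0152 and 0.0131 over all genes. Scd2, a fatty acid desaturase, rose by 3.0 ± 0.21 and 2.63 ± 0.17 and Abca1, a cholesterol exporter, by 1.11 ± 0.12 and 1.22 ± 0.10, while the second cholesterol exporter, Abcg1, fell in both (-0.48 ± 0.11, lost with a mouse left out, highest adjusted p = 0.0511, and -0.90 ± 0.09). With rmGM-CSF 1 rose and 1 fell in STAT5 fl/fl BMDMs, Abcg1 (0.59 ± 0.11, lost with a mouse left out, highest adjusted p = 0.0192) and Mylip (-1.26 ± 0.09), which encodes a ubiquitin ligase. Without STAT5 2 rose and 1 fell. Between the genotypes with rmGM-CSF, Mylip was higher (1.14 ± 0.09) and Abcg1 lower (-0.98 ± 0.10) in STAT5 cKO BMDMs, and Abca1 was higher (0.63 ± 0.11, lost with a mouse left out, highest adjusted p = 0.0252). With 4T1 CM Abcg1 was lower (-0.53 ± 0.10, likewise lost, highest adjusted p = 0.057).

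Among the receptors that take up lipoproteins every call against DMEM was a rise. Of 7 tested, 4 rose with rmGM-CSF and 5 with 4T1 CM, and none fell, in each genotype, where Cd36 is counted apart. Of all genes 28.5% and 23.5% were called with rmGM-CSF, and 37.4% and 37.6% with 4T1 CM, in STAT5 fl/fl and STAT5 cKO BMDMs. Msr1, the class A scavenger receptor, had 176 CPM ± 7.31, 875 CPM ± 60.7 and 817 CPM ± 24.1 (SD, n = 2) in DMEM, rmGM-CSF and 4T1 CM in STAT5 fl/fl BMDMs and 225 CPM ± 22.3, 634 CPM ± 30.7 and 570 CPM ± 76.2 (SD, n = 3) in STAT5 cKO BMDMs. Its log2 rise of 2.31 ± 0.11 with rmGM-CSF and of 2.21 ± 0.11 with 4T1 CM in STAT5 fl/fl BMDMs compares with 1.49 ± 0.09 and 1.34 ± 0.09 in STAT5 cKO BMDMs. Between the genotypes 1 of the 7 was lower without STAT5 in each treatment, where 2.49%, 9.8% and 7.7% of all genes were called in DMEM, rmGM-CSF and 4T1 CM. In DMEM this was Stab1, a scavenger receptor (-0.58 ± 0.11, adjusted p = 0.00419), and with rmGM-CSF and 4T1 CM it was Msr1 (-0.47 ± 0.10, adjusted p = 0.00245, and -0.52 ± 0.10, adjusted p = 0.00133). All 3 calls were lost with a mouse left out (highest adjusted p = 0.142, 0.0877 and 0.0404). Olr1, a lectin-like scavenger receptor, had at most 1 count per library in DMEM in STAT5 fl/fl BMDMs and 29.3 CPM ± 0.269 (SD, n = 2) with 4T1 CM, at least 223-fold higher against the floor of 3 counts per library. In STAT5 cKO BMDMs it had 0.231 CPM ± 0.107 in DMEM and 84.8 CPM ± 33.4 (SD, n = 3) with 4T1 CM, higher than in STAT5 fl/fl BMDMs (1.53 ± 0.24 on the log2 scale, adjusted p = 3.00e-04), a call lost with a mouse left out (highest adjusted p = 0.03).

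Genes of lipid droplets and fatty acid handling divided. Of 17 tested, 5 rose and 5 fell with 4T1 CM in STAT5 fl/fl BMDMs (37.4% of all genes called) and 4 rose and 4 fell in STAT5 cKO BMDMs (37.6%). Acsl4, which activates fatty acids, rose by 1.49 ± 0.11 and 1.18 ± 0.09 and Dgat1, which makes triglyceride, by 1.15 ± 0.11 and 1.80 ± 0.09. Soat1, which esterifies cholesterol, fell by 0.73 ± 0.07 and 0.46 ± 0.06. With rmGM-CSF 4 rose and 4 fell in STAT5 fl/fl BMDMs, Acsl4 by 1.11 ± 0.11 and Acsl1 by 1.03 ± 0.10 upward, and Soat1 and Dgat2, the other triglyceride synthase, by 0.63 ± 0.07 and 1.54 ± 0.18 downward. In STAT5 cKO BMDMs 2 rose and 4 fell. Between the genotypes 2 of the 17 were lower without STAT5 in DMEM, 3 were lower with rmGM-CSF, and 1 was lower and 1 higher with 4T1 CM. Of all genes 2.49%, 9.8% and 7.7% were called there. Mgll, a lipase for monoglycerides, was lower without STAT5 in DMEM (-1.01 ± 0.12), and also with rmGM-CSF and 4T1 CM (-0.62 ± 0.13 and -0.66 ± 0.13, both lost with a mouse left out, highest adjusted p = 0.0895 and 0.0416).

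Of 16 genes of TREM2 signalling and other lipid-associated macrophage genes, 7 rose and 1 fell with 4T1 CM in STAT5 fl/fl BMDMs. In STAT5 cKO BMDMs 6 rose and 1 fell, beside 37.4% and 37.6% of all genes called. Lilr4b, an inhibitory immunoglobulin-like receptor, rose by 1.5 ± 0.14 and 1.20 ± 0.11 and the integrin gene Itgax by 1.20 ± 0.18 and 0.85 ± 0.14. With rmGM-CSF 3 rose and 1 fell, and 2 rose, respectively, beside 28.5% and 23.5% of all genes called. Clec7a, the β-glucan receptor dectin-1, rose by 1.01 ± 0.09 in STAT5 fl/fl BMDMs. Its STAT5 cKO level was lower with rmGM-CSF (-1.18 ± 0.08) and 4T1 CM (-0.48 ± 0.08, lost with a mouse left out, highest adjusted p = 0.0109). Spp1, the gene of the secreted protein osteopontin, went the other way and was higher without STAT5 in DMEM (0.67 ± 0.11, adjusted p = 0.00185) and with rmGM-CSF (0.70 ± 0.11, adjusted p = 2.90e-04), calls that were lost with a mouse left out (highest adjusted p = 0.0447 and 0.0135).

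Of the alveolar macrophage genes linked to GM-CSF, 7 of 13 were tested, because Car4, Chil3, Krt79, Ear1, Ear2 and Ear6 had at most 2 counts in any library. With rmGM-CSF 3 rose and 2 fell in STAT5 fl/fl BMDMs (Cebpb by 2.05 ± 0.19, Spi1 by 0.71 ± 0.07 and Bhlhe40 by 0.82 ± 0.09 upward, Cebpa by 1.43 ± 0.17 downward), and 2 rose and 1 fell in STAT5 cKO BMDMs. With 4T1 CM 4 rose and 1 fell, and 2 rose and 1 fell. Of all genes 28.5% and 23.5% were called with rmGM-CSF, and 37.4% and 37.6% with 4T1 CM. Mrc1, the mannose receptor, had a lower STAT5 cKO level in all treatments, at -1.22 ± 0.21 in DMEM (adjusted p = 0.00175), -1.86 ± 0.21 with rmGM-CSF (adjusted p = 4.61e-06) and -1.48 ± 0.20 with 4T1 CM (adjusted p = 8.53e-05). The DMEM and 4T1 CM calls were lost with a mouse left out (highest adjusted p = 0.0455 and 0.0101). All 4 MiT/TFE factor genes, whose proteins control lysosome genes such as Gpnmb, were lower with 4T1 CM than with rmGM-CSF in both genotypes, Tfeb by 1.28 ± 0.09 and 1.18 ± 0.07. In that comparison 30.5% and 34.1% of all genes were called in STAT5 fl/fl and STAT5 cKO BMDMs. Set against DMEM, 2 of the 4 rose and 2 fell with 4T1 CM in STAT5 fl/fl BMDMs, and 1 rose and 2 fell in STAT5 cKO BMDMs. With rmGM-CSF 2 rose and 0 fell in each genotype. Against DMEM with rmGM-CSF, Tfec rose by 2.20 ± 0.13 and 1.66 ± 0.12, and its STAT5 cKO level was lower in DMEM (-0.85 ± 0.14, lost with a mouse left out, highest adjusted p = 0.033), with rmGM-CSF (-1.39 ± 0.11) and with 4T1 CM (-1.39 ± 0.13). Of 4 other galectin genes, 2 rose with 4T1 CM in STAT5 fl/fl BMDMs (37.4% of all genes called) and 3 in STAT5 cKO BMDMs (37.6%). Lgals8 rose by 0.46 ± 0.06 and 0.35 ± 0.05.

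**Figure D4:**
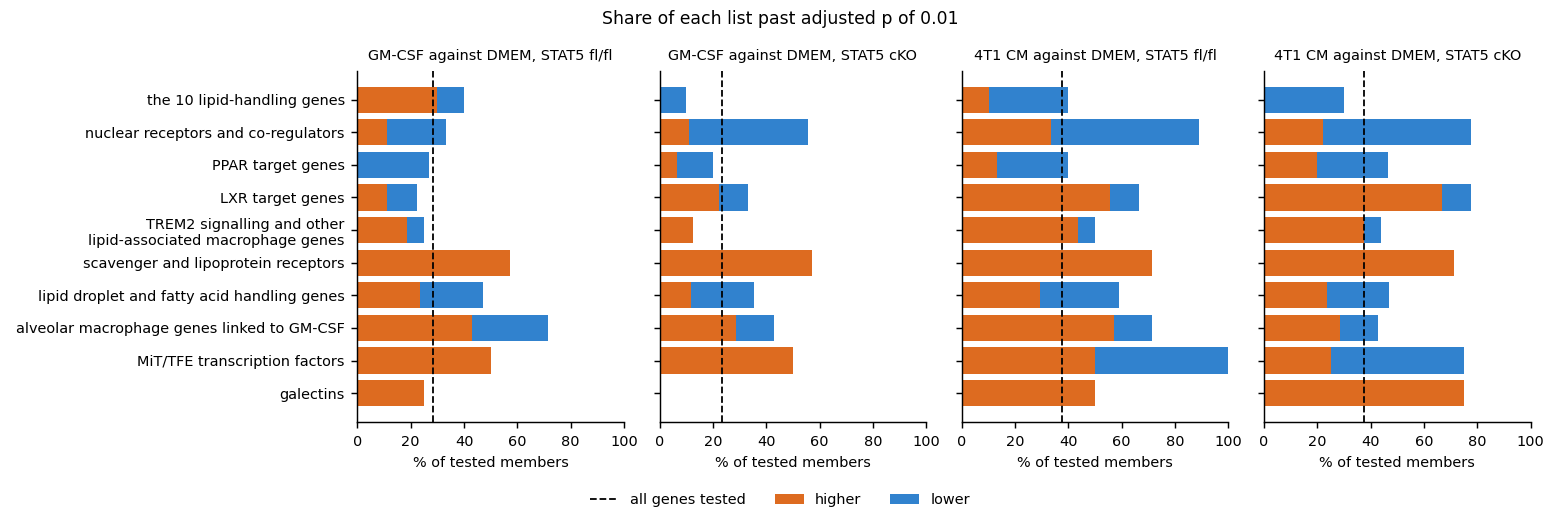
Share of the tested genes of each list called higher (orange) or lower (blue) against DMEM at an adjusted p under 0.01, with rmGM-CSF and 4T1 CM in each genotype; the dashed line is the share of all 13005 tested genes (28.5%, 23.5%, 37.4% and 37.6%). The scavenger and lipoprotein receptors hold orange bars alone in all 4 panels.

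The tested genes most like Pparg over the 15 libraries, by Pearson correlation of log2 CPM, were Rasgef1a (0.986), Rev1 (0.984), Gapvd1 (0.978), Wdr91 (0.977) and Acin1 (0.976). Among the 10 genes, Fabp4 and Plin2 followed Pparg most closely over all libraries (0.85 and 0.83). Within the groups, where the treatment is removed, the same values were -0.58 and -0.02. These correlations are descriptions over libraries that share treatments, mice and depth.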

How the data were processed

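Stranded RNA-seq libraries of BMDMs were trimmed by the authors with Trimmomatic 0.33, aligned with HISAT2 2.1.0 to GRCm38 and counted per gene with featureCounts 1.6.2; the deposited values are raw counts without normalization. Multi-mapping pairs were left out by a mapping quality limit. The study removed 1 STAT5 fl/fl replicate after quality control, which was not analysed here. From the counts of 15 libraries, genes over 1 CPM in at least 2 libraries were kept (13005 of 55385). A model of all 6 groups was fitted with edgeR 4.0.16 (R 4.3.3; relative log expression normalization, quasi-likelihood test), and Benjamini-Hochberg adjusted p-values were taken over all tested genes, with a threshold of 0.01, in 11 comparisons. CPM were counts scaled by library total and normalization factor, and RPKM divided these by exon length. Alternatives used TMM, DESeq2 1.42.0, other filters, other tests, limma 3.58.1 voom and mice left out. The fit was tested on simulated data.

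The numbers 112 to 116 were taken to mark mice. Deviations from the group mean correlated at 0.0548 to 0.214 over the 9 pairs of STAT5 cKO libraries with the same number, against -0.238 to 0.149 over the 18 pairs with different numbers, which centring on the group mean pushes below 0. With 2 STAT5 fl/fl libraries per group the deviations mirror each other, so that they give only 3 separate values, 0.0926, 0.121 and 0.213. The block for the number was an alternative to the unpaired fit. The main fit takes the 15 libraries as independent, although those with the same number are taken to share a mouse. Its p-values set each difference against the spread between libraries within the 6 groups. In the genotype comparisons that spread comes from 2 STAT5 fl/fl and 3 STAT5 cKO mice, each entered once per treatment.

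The 10 genes and the lists were chosen with earlier results of these data known. Named were all 10, Stat5a, Stat5b and Cish, up to 4 genes of each list with the smallest adjusted p in each comparison, and the 5 genes most correlated with Pparg. Other genes of the marker lists were named for their counts. The values of 1 list gene are not reported here.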

Additional observations from a re-analysis of the deposited data

Results flagged for a closer look

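Of the other genes of the pathway, 7 responded to rmGM-CSF differently in the genotypes by the edgeR interaction test, and 1 of them, Msr1, also to 4T1 CM. They were 2 of 9 tested LXR targets, 2 of 17 lipid droplet and fatty acid genes, 1 of 16 genes of the TREM2 list, 1 of 7 lipoprotein receptors and 1 of 7 alveolar macrophage genes. Of all tested genes 3.11% were called for rmGM-CSF and 1.27% for 4T1 CM. In each case the value is the log2 response in STAT5 cKO minus that in STAT5 fl/fl BMDMs. Clec7a gave -0.96 ± 0.11 (adjusted p = 2.21e-05), from a response of 1.01 in STAT5 fl/fl and 0.04 in STAT5 cKO BMDMs. Mylip gave 1.0 ± 0.12 (adjusted p = 3.55e-05), from -1.26 and -0.26. These 2 also passed with each mouse left out in turn (highest adjusted p = 0.00421 for Clec7a and 0.00639 for Mylip).

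The others lost their call with a mouse left out. Abcg1 gave -0.87 ± 0.14 (adjusted p = 6.47e-04, highest with a mouse left out 0.0294), from 0.59 and -0.28. Lipe, a hormone-sensitive lipase, gave -0.65 ± 0.11 (9.30e-04, highest 0.0338), from 0.39 and -0.27, so that the response of each of these genes was positive in STAT5 fl/fl and negative in STAT5 cKO BMDMs. Acsl1 gave -0.77 ± 0.13 (0.00108, highest 0.0483), from 1.03 and 0.26, and Bhlhe40 -0.60 ± 0.12 (0.00523, highest 0.0558), from 0.82 and 0.22. Msr1 gave -0.82 ± 0.14 for rmGM-CSF (0.00117, highest 0.0471), from 2.31 and 1.49, and -0.87 ± 0.14 for 4T1 CM (0.00164, highest 0.0506), from 2.21 and 1.34.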

How the results depend on the processing

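Of the 27 values of the 10 genes past the threshold, 0 reversed. Under alternatives that keep all mice 261 of 266 values stayed past it, and with a mouse left out 97 of 135. A further 16 values passed only in an alternative. Between the genotypes in DMEM 0 of 10 were called, and 2 with DESeq2, 1 without the low-count filter, 1 in a model of only the groups compared and 1 at an adjusted p under 0.05. With rmGM-CSF 1 was called, and 2 with TMM, 3 with DESeq2, 3 without the filter, 3 by the likelihood ratio test, 3 by limma voom with the replicate block as a random effect, 5 with only the groups compared and 4 at 0.05. With 4T1 CM 3 were called, and 2 with TMM, 4 with DESeq2, 4 without the filter, 4 by the likelihood ratio test, 1 with only the groups compared and 5 at 0.05. Of all 13005 genes the main fit called 324, 1275 and 1001 between the genotypes in DMEM, rmGM-CSF and 4T1 CM. DESeq2 called 557, 1493 and 1231, TMM 319, 1287 and 1013, and the likelihood ratio test 608, 1568 and 1322. Limma voom called 335, 1242 and 994, and at an adjusted p under 0.05 there were 910, 2145 and 1957. Without the filter 453, 1332 and 1119 of 25884 genes were called. With only the groups compared it was 277 of 12405, 1725 of 12199 and 280 of 12476. There the counts of the 10 with rmGM-CSF and 4T1 CM moved in the same direction as those of all genes. For rmGM-CSF against DMEM in STAT5 cKO BMDMs 1 was called, and 2 without the filter, 3 with the fixed replicate block, 2 with only the groups compared and 3 at 0.05. Of all genes the same settings called 3053, 2966, 3336, 3200 and 4483, in that order. For 4T1 CM against DMEM in STAT5 cKO BMDMs 3 were called, and 4 with DESeq2, without the filter, by the likelihood ratio test, by limma voom and with the fixed block, and 5 at 0.05. Of all genes the main fit called 4894 there, and the other settings, in the same order, 4824, 4985, 5137, 5058, 5204 and 6385. Counts within 1.5 times the main count in the other comparisons are not listed. The differences between the responses gave 0 called (404 and 165 of all genes for rmGM-CSF and 4T1 CM), and 1 and 1 with the fixed replicate block (518 and 302). Beyond the calls of Cd36, Lpl and Fabp5 given with those genes, the fixed block changed no other call of the 10. The causes of these shifts were not tested.

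With 1 mouse left out, the counts called between the genotypes ran from 0 to 1 in DMEM, 0 to 2 with rmGM-CSF and 0 to 3 with 4T1 CM. Against DMEM they ran from 1 to 4 (STAT5 fl/fl) and 0 to 1 (STAT5 cKO) with rmGM-CSF, and from 2 to 4 and 3 to 4 with 4T1 CM. For 4T1 CM against rmGM-CSF they ran from 2 to 6 and 3 to 5, and for the differences between responses from 0 to 0. Without mouse 112 or 113 a single STAT5 fl/fl library remains, assumed to vary like the other groups. Fewer of all genes were called too when mouse 114, 115 or 116 was left out. Between the genotypes these fits called 171 to 243 genes in DMEM, 909 to 1010 with rmGM-CSF and 739 to 835 with 4T1 CM. With all mice it was 324, 1275 and 1001. Against DMEM in STAT5 cKO BMDMs they called 1833 to 2076 with rmGM-CSF (3053 with all mice) and 3708 to 3969 with 4T1 CM (4894). TMM moved the median of all genes by at most 0.00783 on the log2 scale.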
